A study of Mus musculus with 6 samples.

Results

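The proteasome is the large protease that takes apart proteins marked with ubiquitin. The 44 genes described here were found by symbol among 22180 genes measured on arrays in cultured mouse lung fibroblasts, as those whose symbol starts with Psma, Psmb, Psmc, Psmd or Psme followed by a digit. 42 of them encode proteasome subunits, activators or assembly factors. The other two, Psmc3ip, a cofactor of meiotic recombination, and Psme3ip1, a protein that binds one of the activators, share only the prefix. Psma4, an alpha subunit gene, was not among them, because its probe sets carry a second symbol.

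The cells were primary fibroblasts from the lungs of adult mice of mixed strain that carried UBCCreERT2, a tamoxifen-dependent Cre recombinase under the broadly active ubiquitin C promoter, and R26RSmoM2, a Cre-dependent allele of constitutively active Smoothened. 3 wells received vehicle and 3 received 1 µg/ml 4-hydroxytamoxifen (4OHT), which activates the recombinase, and RNA was taken after 48 h. Vehicle wells carried both alleles too, so the drug, the recombinase and the activated allele cannot be told apart in any comparison below. The labels speak of wells split from isolated cells and name no separate animals, so the p-values reflect well-to-well spread alone, and that spread may be technical. The number of arrays limits the precision, and in bulk RNA fewer cells of a type and less RNA per cell cannot be told apart.

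The core particle is a barrel of stacked rings, with alpha subunits in the outer rings that gate the entrance and beta subunits in the inner rings, of which Psmb5, Psmb6 and Psmb7 encode the catalytic ones. The regulatory particle caps the barrel. Its ATPases, the Psmc genes, unfold the substrate. Of its other subunits, encoded by most of the Psmd genes, some bind ubiquitin or remove it and others form the scaffold and lid. Under interferon the catalytic subunits are exchanged for Psmb8, Psmb9 and Psmb10, which makes the immunoproteasome, and the activator subunits Psme1 and Psme2 are induced, which changes the peptides offered to T cells. When proteasome activity falls short, the transcription factor Nfe2l1 raises the genes of both particles together through antioxidant response elements.

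The promoters of 6 members are shown because they hold the contrast that the comparison addresses. Psmd8 and Psme4 are the genes that rose, Psmb5 and Psmb6 are constitutive catalytic subunits, and Psmb8 and Psmb9 are the inducible ones that replace them. Each stretch runs from 100 bases before to 5 bases after the RefSeq transcript start in GRCm38.p6, on the strand of the gene. Capitals mark matches to an antioxidant response element core (TGACNNNGC) or a gamma-activated site (TTCNNNGAA), searched on both strands. The stretches lie at chr7:29180669-29180773 (minus strand) for Psmd8, chr11:30771675-30771779 (plus) for Psme4, chr14:54617991-54618095 (minus) for Psmb5, chr11:70525257-70525361 (plus) for Psmb6, chr17:34198095-34198199 (plus) for Psmb8 and chr17:34187326-34187430 (minus) for Psmb9.
Psmd8: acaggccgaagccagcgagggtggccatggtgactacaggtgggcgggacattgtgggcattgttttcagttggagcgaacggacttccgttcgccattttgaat
Psme4: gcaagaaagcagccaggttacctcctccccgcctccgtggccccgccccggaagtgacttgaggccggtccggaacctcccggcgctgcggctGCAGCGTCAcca
Psmb5: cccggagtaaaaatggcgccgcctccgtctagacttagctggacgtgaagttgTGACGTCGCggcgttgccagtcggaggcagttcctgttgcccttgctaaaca
Psmb6: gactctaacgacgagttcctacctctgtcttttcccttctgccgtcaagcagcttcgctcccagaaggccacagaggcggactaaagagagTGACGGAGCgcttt
Psmb8: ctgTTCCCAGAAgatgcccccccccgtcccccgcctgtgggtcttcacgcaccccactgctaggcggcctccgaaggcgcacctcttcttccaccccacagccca
Psmb9: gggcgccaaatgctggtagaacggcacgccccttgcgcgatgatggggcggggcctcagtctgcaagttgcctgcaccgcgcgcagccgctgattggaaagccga

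37 of the 44 members had a promoter window in the RefSeq table, 41 windows of 300 bases in all, from 250 before to 50 after the start. The antioxidant response element core stood in 6 of the 41 windows (14.6%), those of Psmb5, Psmb6, Psmc6, Psmd9, Psmd12 and Psme4, and in 12.4% of all 32851 windows. The gamma-activated site stood in 2 windows (4.88%, against 8.30% of all), those of Psmb8 and Psmd2. The interferon regulatory factor repeat, also searched on both strands, stood in 4 (9.76%, against 3.44%), those of Psmb3, Psmd4, Psmd9 and Psme1. Psmb9 is transcribed away from its neighbour Tap1, a peptide transporter gene, and the windows of both share 275 bases. A match describes letters only.

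The comparison asked whether 4OHT changed the genes of the core particle, the regulatory particle and the immunoproteasome. Most of the 44 genes stayed within a narrow range around no change. Psmd8, a regulatory particle subunit, and Psme4, the nuclear activator PA200, rose 1.22-fold and 1.18-fold in 4OHT wells. Psmb1, a beta ring subunit, and Psmd7, a scaffold partner of the deubiquitinase in the regulatory particle, fell by 0.26 each on the log2 scale. None of the immunoproteasome genes passed the test.

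These 4 genes were called by limma at a Benjamini-Hochberg adjusted p under 0.05 over all genes tested. They make 9.09% of the 44, against 12% of all genes called, so the share of members called was not above that of all genes. 2 members were higher and 2 lower, against 5.38% and 6.62% of all genes in these directions. With the arrays centred on their medians, 2 were higher and 1 lower. An unadjusted p under 0.05 was reached by 8 members (18.2%), against 26.4% of all genes. Some alternatives called more genes throughout: among genes above the median level 7 of 40 members were called, against 35% of all genes so tested, and with a trended and robust spread 7 of 44, against 18.6%. The vehicle and 4OHT wells did not overlap in 15 members (34.1%), 7 higher and 8 lower, against 32.7% of all genes, 15% higher and 17.8% lower. Log2 fold changes ranged from -0.31 to 0.28, and 25 of 44 (56.8%) were below 0, against 51.4% of all genes. The median was -0.02, against -0.01 for all genes. It lay at 0.0006 with the arrays centred on their medians, against 0.0161 for all genes. Centring shifts all genes alike, so the members' median stayed slightly below that of all genes. Its sign depends on the centring, so no direction is given for the members as a whole.

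**Figure D1:**
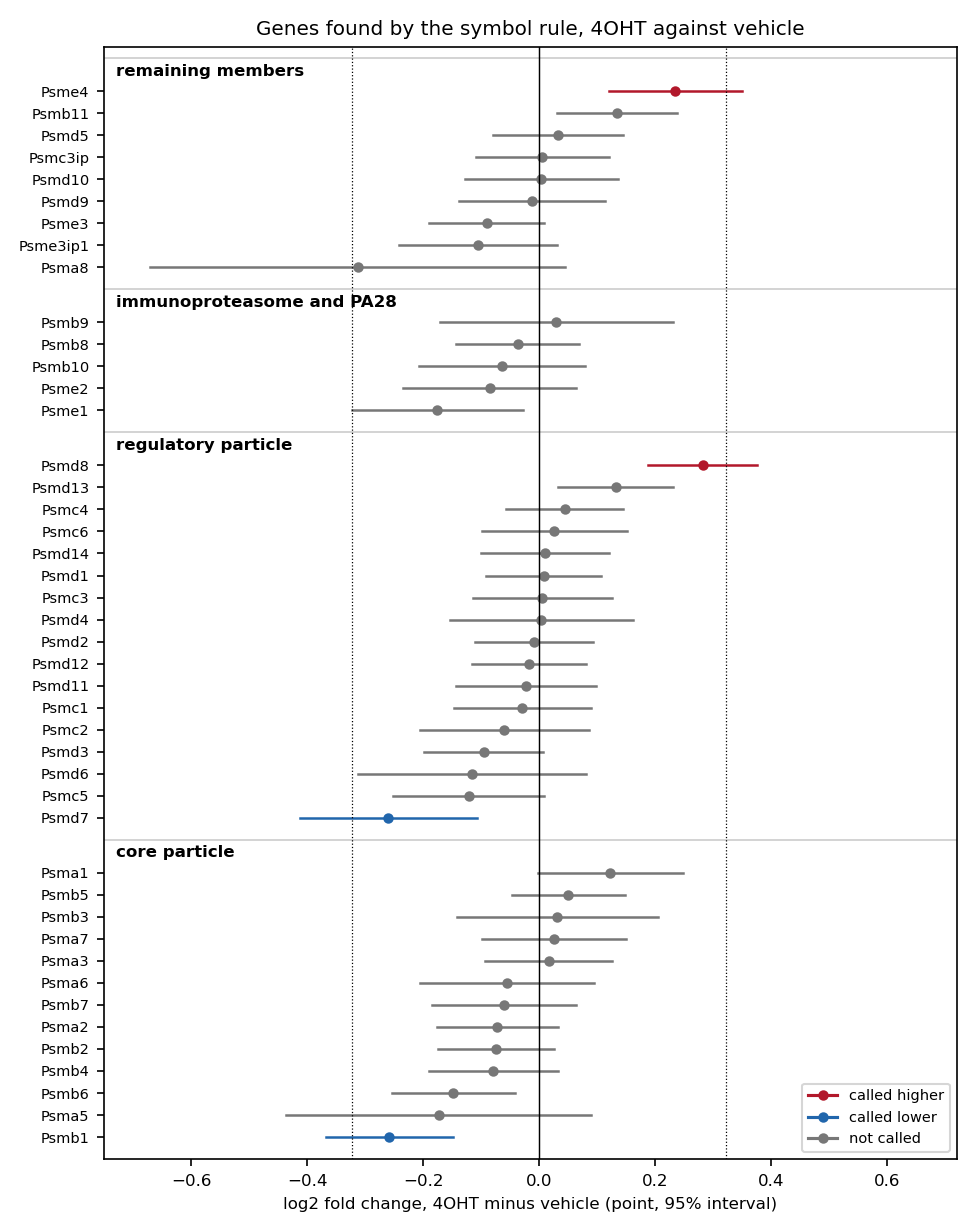
Log2 fold change of each of the 44 genes, 4OHT minus vehicle (points), with the 95% interval from limma (lines), by particle. Dotted lines mark a 1.25-fold change in either direction. Psmd8 and Psme4 lie to the right and Psmb1 and Psmd7 to the left of 0 as the called genes, and the widest interval is that of Psma8.

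The fold changes were small and well measured. The median absolute log2 fold change was 0.06 for the members and 0.09 for all genes, and the median SD between wells of a group was 0.05 for the members and 0.08 for all genes. For 37 of the 40 members not called, the 95% interval of the fold change lay wholly inside a 1.25-fold change in either direction. The exceptions not called were Psma5, Psma8 and Psme1. Among all genes tested, called or not, 64.3% had an interval inside that band, and among the members 84.1%. Of the other lists below, those wholly above the median level had 80% to 84.6%, apart from the cell division genes (0%). No share or SD was taken for all genes of like level, so these figures do not set the members apart from other bright genes. 4 members lay below the median level of all genes, namely Psma5, Psma8, Psmb9 and Psmb11, and fold changes are compressed at such levels by RMA. In the same wells 9 of 9 measured genes of cell division fell, among them Ccna2, Plk1 and Top2a, which were 2.99-fold, 2.84-fold and 2.51-fold lower.

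**Figure D2:**
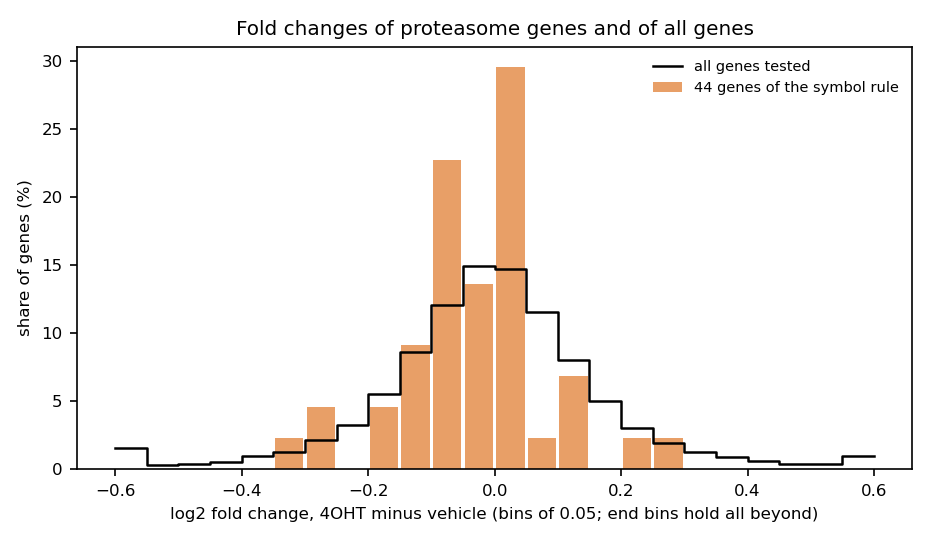
Share of genes (%) by log2 fold change, 4OHT minus vehicle, in bins of 0.05, for the 44 genes (bars) and all 22180 genes tested (line); the end bins also hold all values beyond them. All members lie in bins between -0.35 and 0.30, some of which are empty, and the line has the longer tails.

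Among the called genes the rise of Psmd8 was the clearest. Psmd8, which sits in the lid of the regulatory particle, read a log2 expression of 13.02, 13.02 and 12.99 in the vehicle wells and 13.30, 13.29 and 13.29 in the 4OHT wells. The groups were far apart for the spread within them (13.01 ± 0.02 and 13.29 ± 0.01, SD, n = 3), and the log2 fold change was 0.28 (SE 0.0394, 95% interval 0.19 to 0.38, limma adjusted p = 0.00626). This call held under all 15 alternatives, with an adjusted p of at most 0.0379, reached with the replicate number as a block. Psme4 encodes PA200, an activator that opens the core particle without ubiquitin and acts on histones. Its values were 11.20, 11.24 and 11.23 in vehicle wells and 11.53, 11.45 and 11.41 in 4OHT wells, again with no overlap. The log2 fold change was 0.23 (SE 0.0478, limma adjusted p = 0.0243). The call was lost without any of vehicle replicates 1, 2 and 3 (adjusted p 0.0819, 0.0751 and 0.0621), without 4OHT replicate 1 (0.0738) or 2 (0.0800), and with the replicate number as a block (0.0773).

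Psmb1, which encodes a beta subunit without catalytic activity, read 11.27, 11.32 and 11.27 in vehicle wells and 10.97, 11.04 and 11.07 in 4OHT wells. Every 4OHT well was below every vehicle well, and the log2 fold change was -0.26 (SE 0.0459, limma adjusted p = 0.0153). The call was lost without vehicle replicate 2 (adjusted p = 0.0655), 4OHT replicate 1 (0.0558) or 4OHT replicate 2 (0.0606), and with the replicate block (0.0541). Psmd7, whose product pairs with the deubiquitinase Psmd14, read 11.59, 11.59 and 11.42 in vehicle wells and 11.24, 11.24 and 11.34 in 4OHT wells. The groups did not overlap, and the third replicate of each group lay closest to the other group. The log2 fold change was -0.26 (SE 0.0639, limma adjusted p = 0.0455). It held without vehicle replicate 3 (0.0264) and was lost without any of the other 5 arrays (from 0.0597 to 0.144), with the replicate block (0.117) and after centring each array on its median (0.0612).

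**Figure D3:**
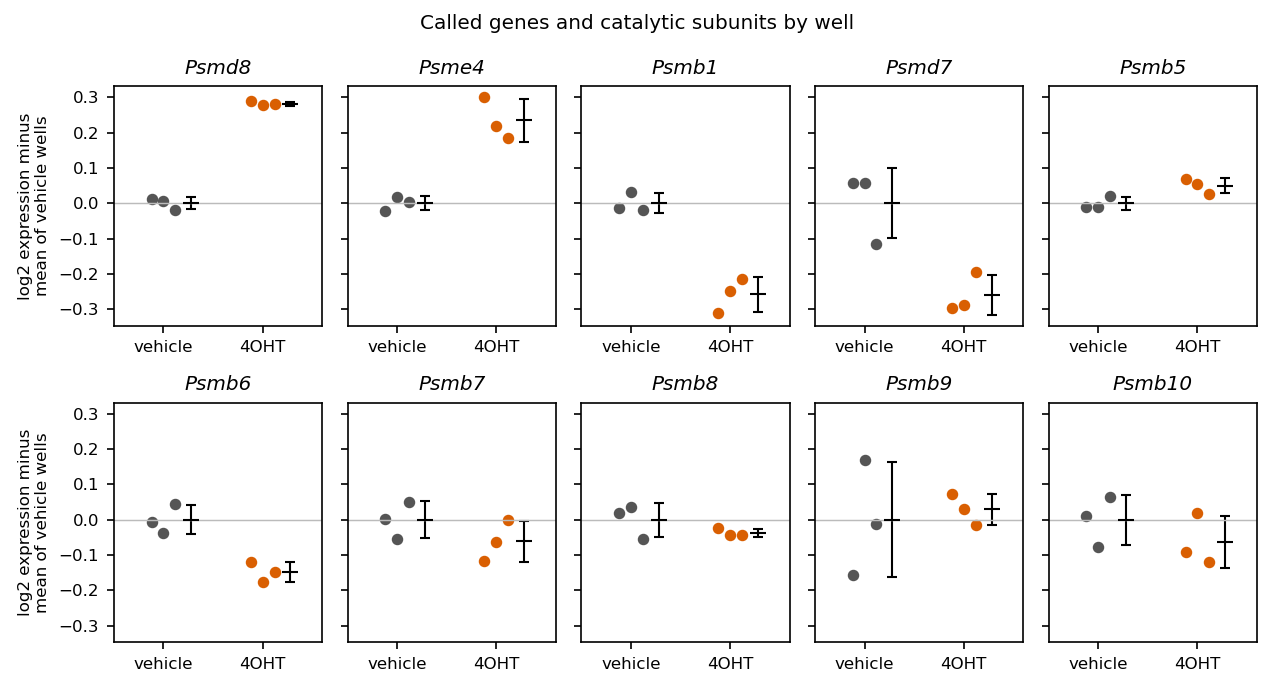
Log2 expression minus the mean of the vehicle wells for the 4 called genes and the 6 catalytic subunit genes, by well (points), with the mean and SD of each group of 3 (bars). The 4OHT wells of Psmd8, Psme4 and, narrowly, Psmb5 lie above all vehicle wells. Those of Psmb1, Psmd7 and Psmb6 lie below, and the groups of Psmb7, Psmb8, Psmb9 and Psmb10 overlap.

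In the core particle 1 of 13 measured genes was lower, Psmb1, and none was higher by limma (7.69% called, against 12% of all genes). Of the 13, 2 had an unadjusted p under 0.05, against 26.4% of all genes. The median log2 fold change was -0.06 and the range -0.26 to 0.12. The alpha ring, which holds the gate, had 6 measured genes, none called and none with an unadjusted p under 0.05. Psma1 read 11.74, 11.76 and 11.83 in vehicle wells and 11.96, 11.91 and 11.83 in 4OHT wells, for a log2 fold change of 0.12 (limma adjusted p = 0.198). Its groups did not overlap, but the highest vehicle well and the lowest 4OHT well were almost level. Psma2 read 10.62, 10.57 and 10.53 against 10.50, 10.49 and 10.51, and Psma6 read 11.10, 11.17 and 11.23 against 11.12, 11.02 and 11.19. The groups of Psma2 did not overlap and those of Psma6 did, at log2 fold changes of -0.07 and -0.06. Psma5 was dim, at 5.98, 6.01 and 6.27 against 5.79, 6.10 and 5.84. Its groups overlapped, its interval was wide (log2 fold change -0.17, 95% interval -0.44 to 0.09), and its second probe set was dimmer still, with a mean of 5.12 over the 6 arrays and a log2 fold change of 0.02. Psma3 and Psma7 had log2 fold changes of 0.02 each.

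Among the beta subunits without catalytic activity, Psmb2 read 11.74, 11.77 and 11.74 in vehicle wells and 11.65, 11.67 and 11.71 in 4OHT wells. Psmb4 read 11.48, 11.50 and 11.44 against 11.36, 11.37 and 11.45. Both differences were small (log2 fold changes -0.07 and -0.08, limma adjusted p = 0.318 and 0.341), and the groups overlapped for Psmb4 alone of the pair. Psmb3 had a log2 fold change of 0.03.

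None of the 3 constitutive catalytic subunit genes was called by limma, and 1 had an unadjusted p under 0.05 (Psmb6), against 26.4% of all genes. Psmb5, the chymotrypsin-like subunit and the main target of proteasome inhibitors, read 13.20, 13.20 and 13.23 in vehicle wells and 13.28, 13.26 and 13.23 in 4OHT wells. The groups lay side by side without overlap, at a log2 fold change of 0.05 (95% interval -0.05 to 0.15). Psmb6, the caspase-like subunit, read 10.48, 10.45 and 10.53 against 10.37, 10.31 and 10.34. All 4OHT wells were lower, but the log2 fold change of -0.15 missed the threshold (95% interval -0.25 to -0.04, limma adjusted p = 0.0839). It passed in the alternatives that called more genes throughout, among genes above the median level (0.0180, 35% of all genes called) and with a trended and robust spread (0.0187, 18.6% called). Psmb7, the trypsin-like subunit, read 11.41, 11.35 and 11.46 against 11.29, 11.34 and 11.41, with overlapping groups and a log2 fold change of -0.06 (95% interval -0.18 to 0.06).

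The inducible catalytic subunits showed no change beyond the spread between wells. Psmb8, which replaces Psmb5, read 7.52, 7.53 and 7.44 in vehicle wells and 7.47, 7.45 and 7.45 in 4OHT wells. Psmb9, which replaces Psmb6, read 6.22, 6.54 and 6.36 against 6.45, 6.41 and 6.36, and Psmb10, which replaces Psmb7, read 9.54, 9.45 and 9.59 against 9.44, 9.55 and 9.41. The groups overlapped for all 3 genes. Their log2 fold changes were -0.04 (95% interval -0.14 to 0.07), 0.03 (-0.17 to 0.23) and -0.06 (-0.21 to 0.08). A change of 1.25-fold in the array value lay outside each interval. Psmb9 lay below the median level of all genes and Psmb8 just above it. RMA compresses fold changes at low levels, so the interval of Psmb9 does not bound the change of its RNA.

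Psme1 and Psme2 encode the subunits of PA28 alpha and beta, the activator ring that interferon induces together with the immunoproteasome. Psme1 read 10.07, 9.98 and 10.05 in vehicle wells and 9.75, 9.89 and 9.94 in 4OHT wells. All 4OHT wells were below the vehicle wells, at a log2 fold change of -0.18 (95% interval -0.32 to -0.03, limma adjusted p = 0.128). It too passed in those alternatives, among genes above the median level (0.0400, 35% of all genes called) and with a trended and robust spread (0.0407, 18.6% called). Psme2 read 9.69, 9.52 and 9.64 against 9.52, 9.61 and 9.47, with overlapping groups and a log2 fold change of -0.09 (95% interval -0.23 to 0.06). A probe set that names Psme2 together with 9930111J21Rik1 and 9930111J21Rik2 went the other way, at 0.28 (limma adjusted p = 0.0294). That probe set was tested after the data had been seen and is not counted here. Of the 5 immunoproteasome and PA28 genes, none was called by limma, 1 (Psme1) had an unadjusted p under 0.05 (26.4% of all genes had), and 4 had a log2 fold change below 0. Psmb8 and Psmb9 flank Tap1 in the class II region of the histocompatibility complex, and Psme1 and Psme2, on another chromosome, are separated by a single protein-coding gene, Emc9.

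To set each inducible subunit against the one it replaces, the per-well log2 difference between them was compared between groups for 3 pairs. Psmb8 minus Psmb5 changed by -0.09 (from -5.71 ± 0.07 to -5.80 ± 0.02, SD, n = 3; exact two-sided permutation p = 0.2). Psmb9 minus Psmb6 changed by 0.18 (from -4.11 ± 0.18 to -3.93 ± 0.04, SD, n = 3; exact p = 0.3), and Psmb10 minus Psmb7 changed by -0.003 (exact p = 1). The groups overlapped in every pair, the Benjamini-Hochberg adjusted values over the 3 pairs were 0.45, 0.45 and 1, and 3 wells against 3 cannot give an exact p below 0.1. The differences of levels themselves compare different probe sets and carry no meaning as amounts.

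In the regulatory particle 1 of 17 genes was higher, Psmd8, and 1 was lower, Psmd7 (11.8% called, against 12% of all genes). The median log2 fold change was -0.01. The ATPase ring, which pulls the substrate into the barrel, was level throughout, with every interval inside 1.25-fold. None of its 6 genes was called by limma and none had an unadjusted p under 0.05, against 26.4% of all genes. Psmc5 read 9.29, 9.36 and 9.33 in vehicle wells and 9.16, 9.16 and 9.30 in 4OHT wells, at a log2 fold change of -0.12 (limma adjusted p = 0.217). Psmc4 read 12.47, 12.42 and 12.49 against 12.50, 12.51 and 12.51, and Psmc2 read 10.75, 10.69 and 10.68 against 10.56, 10.63 and 10.76. Only Psmc4 of these 3 had groups without overlap, at a log2 fold change of 0.04. The second probe set of Psmc2 had a log2 fold change of 0.09, against -0.06 for the brighter one. Psmc1 read 10.93, 10.89 and 10.84 against 10.81, 10.84 and 10.91, and Psmc6 read 12.16, 12.17 and 12.06 against 12.10, 12.15 and 12.21. Both had overlapping groups, with log2 fold changes of -0.03 and 0.03, and Psmc3 had one of 0.01.

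The other subunits of the regulatory particle include those that recognise ubiquitin, cut it off or hold the lid together. Psmd13, a lid subunit, read 9.10, 9.13 and 9.11 in vehicle wells and 9.21, 9.27 and 9.25 in 4OHT wells. All its 4OHT wells were higher, but the log2 fold change of 0.13 did not pass (limma adjusted p = 0.0946); it passed among genes above the median level (0.0203), where 35% of all genes were called. Psmd3 read 10.72, 10.66 and 10.66 against 10.59, 10.57 and 10.61, and Psmd6 read 10.78, 10.71 and 10.67 against 10.46, 10.60 and 10.76. The groups of Psmd3 did not overlap (log2 fold change -0.10, limma adjusted p = 0.217), whereas 4OHT replicate 3 placed Psmd6 among its vehicle wells (-0.12, 0.437). The remaining 6 genes were level, with log2 fold changes from -0.02 to 0.01. They were the scaffold genes Psmd1 and Psmd2, the ubiquitin receptor gene Psmd4, the lid genes Psmd11 and Psmd12, and Psmd14, the deubiquitinase gene.

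Among the remaining members, Psme3, which encodes the nuclear activator PA28 gamma, read 10.99, 11.03 and 11.02 in vehicle wells and 10.92, 10.95 and 10.90 in 4OHT wells. Its groups did not overlap and lay in the opposite direction to those of Psme4, but the log2 fold change of -0.09 did not pass (limma adjusted p = 0.224). The assembly chaperones of the regulatory particle, which guide its ATPases together and leave before it is complete, were level. Psmd5 read 11.20, 11.22 and 11.27 against 11.22, 11.25 and 11.32, Psmd9 read 9.52, 9.51 and 9.64 against 9.57, 9.56 and 9.50, and Psmd10 read 10.79, 10.79 and 10.94 against 10.87, 10.81 and 10.85. Every one of these 3 had overlapping groups and an absolute log2 fold change of 0.03 or less.

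Psmb11, the catalytic subunit of the thymus, and Psma8, the alpha subunit of the testis, were at the dim end of the array. Psmb11 read 5.75, 5.76 and 5.70 in vehicle wells and 5.90, 5.84 and 5.86 in 4OHT wells (log2 fold change 0.13, limma adjusted p = 0.102). Psma8 read 5.97, 6.32 and 6.60 against 6.07, 5.96 and 5.92. Its vehicle wells spread widely (SD 0.32), and its log2 fold change of -0.31, the largest in size of all members, did not pass (limma adjusted p = 0.245); it passed without vehicle replicate 1 (-0.48, adjusted p = 0.0476), where 7.15% of all genes were called. Of the genes that share only the prefix, Psmc3ip read 7.96, 8.01 and 8.06 against 8.05, 7.97 and 8.02, and Psme3ip1 read 11.99, 11.94 and 11.84 against 11.77, 11.81 and 11.87. Neither passed, at log2 fold changes of 0.01 and -0.11.

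Other proteasome factors were taken from a list of assembly, deubiquitinating and inhibitory factors. Of 11 measured genes 1 fell and none rose (9.09% called, against 12% of all genes). Pomp, the chaperone that completes assembly of the core particle, read 10.34, 10.34 and 10.34 in vehicle wells and 10.16, 10.12 and 10.14 in 4OHT wells. These groups stood clear of each other, at a log2 fold change of -0.20 (limma adjusted p = 0.0228), yet leaving out any one of the 6 arrays ended the call (adjusted p up to 0.0945). Psmg1, which assembles the alpha ring, had a log2 fold change of -0.25 (limma adjusted p = 0.0802), Fbxo7 of 0.18 and Akirin2, which brings the proteasome into the nucleus, of 0.11.

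Among the factors that control proteasome genes, the few calls went in both directions. Of all genes 12% were called, 5.38% higher and 6.62% lower. Nfe2l1 read 12.35, 12.31 and 12.33 in vehicle wells and 12.47, 12.45 and 12.46 in 4OHT wells. Its 4OHT wells were all higher, at a log2 fold change of 0.13 that did not pass (limma adjusted p = 0.0859), and Nfe2l2, the related factor of the antioxidant response, had a log2 fold change of 0.02. Among 13 measured genes of the Nfe2l1 pathway, 2 rose and 1 fell, with a median log2 fold change of 0.02. Maff and Mafg, which encode small Maf partners of these factors, rose by 0.32 and 0.28 on the log2 scale, and Ngly1, which encodes the glycanase that activates Nfe2l1, fell by 0.21. The Maff call was lost without 1 of the 6 arrays, the Mafg call without 4 and the Ngly1 call without 5. Of 10 measured genes of ubiquitin supply and delivery, 1 rose and 1 fell. Sqstm1, an autophagy receptor that binds ubiquitin, rose by 0.31 on the log2 scale (limma adjusted p = 0.00696), and the chaperone partner gene Bag3 fell by 0.24 (0.0165, lost without 4 of the arrays). Nbr1 and Uba6, at log2 fold changes of 0.13 each, did not pass.

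The next lists hold genes that act beside the immunoproteasome, and their calls stand against 12% of all genes called. Of 10 measured genes of class I antigen presentation, 2 rose and none fell. H2-K1, which encodes a class I heavy chain, rose by 0.29 on the log2 scale (limma adjusted p = 0.0109). Erap1, which trims peptides for it, rose by 0.24 (0.0192, lost without 5 of the arrays and with the replicate block, 0.0735). Tap1, which shares its promoter window with Psmb9, had a log2 fold change of 0.11 (0.229) and the chaperone gene Calr one of -0.08. Of 10 measured genes of interferon signalling, 1 rose and none fell. Stat2, a transcription factor gene of the interferon response, rose 1.56-fold (limma adjusted p = 0.0125, lost without 2 of the arrays), while Irf1, the factor best known for inducing Psmb8 and Psmb9, had a log2 fold change of 0.20 (0.0632). Jak1 and Irf2 had log2 fold changes of 0.13 and 0.10 and did not pass.

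Median log2 expression of the arrays lay between 7.44 and 7.47. Quantile normalization by RMA brings such medians about, so they do not bear on how alike the arrays were. Calls of the marker genes stand against 12% of all genes called. All 10 listed fibroblast markers were measured above the median level, with 1 lower (Col3a1) and none higher. The culture also held high mesothelial markers, among them Upk3b and Msln, with 2 of 5 lower and 1 higher. The summed linear level of the mesothelial list was 16992 to 17253 in vehicle wells and 14884 to 15552 in 4OHT wells. That of the fibroblast list was 94645 to 97455 and 92877 to 94615, also without overlap. Of 8 endothelial markers 2 were higher, Kdr and Tek, and 2 lower, Pecam1 and Cdh5 (sums 1046 to 1096 and 940 to 969). Cdh5 changed the most of these 8, at a log2 fold change of -0.955. Of 8 epithelial markers 1 was lower (2112 to 2230 and 1973 to 2048), and of 9 leukocyte markers 1 was higher and 1 lower (2266 to 2373 and 2239 to 2350). Array values do not reach 0; the defining leukocyte gene Ptprc lay between 5.22 and 5.56. The part of other cell types in the 4 calls was not tested.

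**Figure D4:**
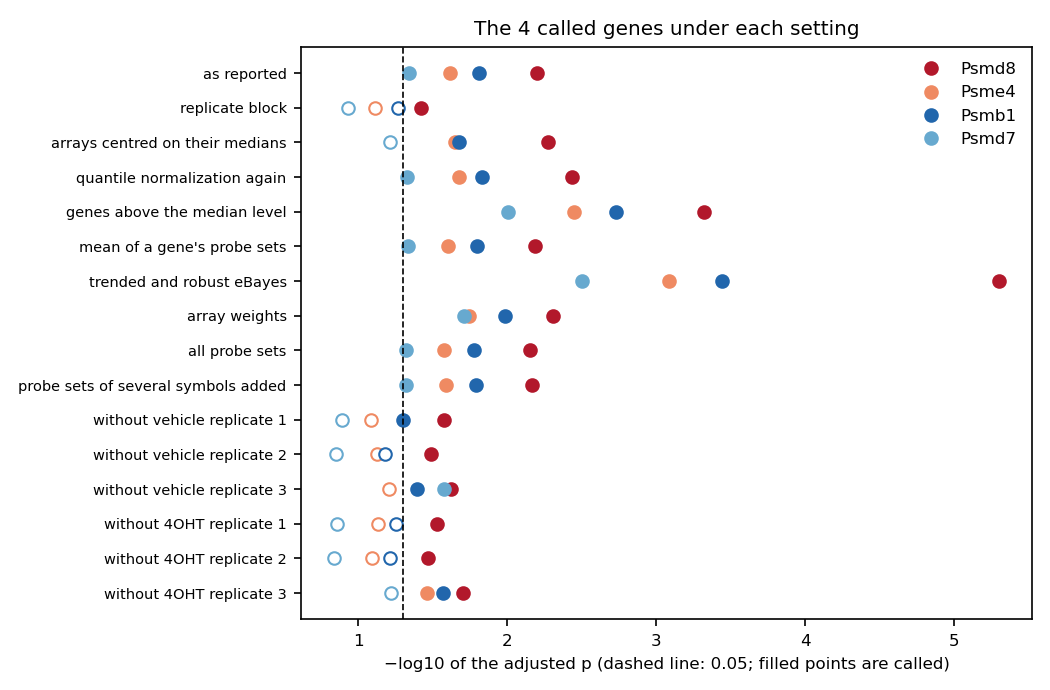
Adjusted p of the 4 called genes, as −log10 on the horizontal axis, under the reported setting and 15 alternatives; filled points pass 0.05 (dashed line) and open points do not. Psmd8 passes in all of them, whereas Psmd7 is lost in 7, Psme4 in 6 and Psmb1 in 4.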

How the data were processed

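Total RNA of 6 wells was measured on single-colour Affymetrix arrays. The deposited table holds log2 expression per probe set, made, per the submitters' processing notes, with RMA and the packages oligo and limma, for which no version is stated. RMA normalizes by quantiles, so a shift of all genes would be removed. The sources used here do not give a genome build for the array annotation.

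Of 41345 probe sets, the 23521 with 1 gene symbol were used, and the brightest on average stood for a gene. limma 3.58.1 in R 4.3.3 (lmFit, eBayes, two-sided) was fitted to all 22180 genes with no filter and no covariate. Benjamini-Hochberg adjustment ran over all of them, and an adjusted p under 0.05 was called. The residual and prior degrees of freedom came to 6.70.

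Values by well are given for the catalytic, inducible and PA28 genes and for up to 10 members of smallest p in the core particle, the regulatory particle and the rest, and for other lists up to 4 genes of smallest p are named, with Nfe2l1 and Nfe2l2 always. The members and lists were chosen with earlier results of these data known. Promoters are RefSeq's (GRCm38.p6), matched by symbol.

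Alternatives blocked on the replicate number, centred arrays on their medians, repeated quantile normalization, kept the brighter genes alone, averaged probe sets per gene, used trended and robust spreads or array weights, tested all probe sets, added those with several symbols (a choice made after seeing the data), and left out each array. Whether same-numbered wells vary together was checked on deviations from group means.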

Additional observations from a re-analysis of the deposited data

How the results depend on the processing

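No called member changed sign under any of the 15 alternatives, and the 33 sign changes among 656 values of members concerned genes with an absolute log2 fold change of at most 0.06. The replicate number as a block left 1 member higher, Psmd8, and 0 lower, in the core particle 0 lower and in the regulatory particle 0 lower. Wells of the same number showed little shared variation (correlations of their deviations 0.06, -0.02 and 0.04). The labels do not say whether the numbers pair the wells, and these correlations cannot settle it. Centring the arrays on their medians left 1 member lower and 0 lower in the regulatory particle. Among genes above the median level, where fewer genes share the adjustment and the spread was estimated anew, 35% of all genes tested and 7 of 40 members were called; 4 members were lower, 2 of them in the core particle and 1 in the immunoproteasome and PA28 group, and 2 were higher in the regulatory particle. A trended and robust spread called 4 lower, 2 of them in the core particle and 1 in the immunoproteasome and PA28 group, and 1 higher in the core particle, Psma1. Leaving out 1 array gave 1 to 2 members higher and 0 to 2 lower, 0 to 1 lower in the core particle and 0 to 1 lower in the regulatory particle. With 1 array left out, the change in the difference between inducible and constitutive partners ranged from -0.13 to -0.06 for Psmb8 minus Psmb5, from 0.10 to 0.28 for Psmb9 minus Psmb6 and from -0.05 to 0.05 for Psmb10 minus Psmb7. Adding probe sets of several symbols, chosen after seeing the data, kept the 4 calls. Over all genes, 1193 were higher and 1469 lower as reported, 648 and 920 with the replicate block, 1750 and 2134 of 11090 genes above the median level, 1828 and 2295 with a trended and robust spread, and 486 to 986 and 734 to 1340 with 1 array left out.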

Other observations

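Probe sets that name a proteasome gene together with another gene entered no count of members above. After the data had been seen they were added to a limma fit over 23994 features. A probe set for Psme2 together with 9930111J21Rik1 and 9930111J21Rik2 read 9.95 ± 0.06 with vehicle and 10.23 ± 0.08 with 4OHT (SD, n = 3). The difference of 0.28 on the log2 scale passed (adjusted p = 0.0294), whereas that of the probe set for Psme2 alone was -0.09. For Psma4, an alpha ring gene, the brighter of its shared probe sets differed by -0.13 on the log2 scale (limma adjusted p = 0.214) and the dimmer by -0.15 (0.239). A probe set shared by Psmd1 and Armc9 differed by 0.08 (0.501).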
